A study of Drosophila melanogaster with 65 samples.

Results

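Histone H3 trimethylated at lysine 4 (H3K4me3) was mapped by Cut&Run in OSS cells, and the summits described here are those of the control list that lay within 1 kb of a gene start. A summit is the position of highest signal in a called peak. Of the 6255 summits of the siGFP list, 5086 had a gene start within 1 kb, which is 81.3% (Wilson 95% interval 80.3 to 82.3, counting error only). They were chosen by position alone, and because many genes lie close together they gave a summit to 5981 of the 16369 gene starts in the deposited gene tables. The summit just inside the limit lay 1000 bp from the start of CG3566 and scored 16.2, and the one just outside lay 1002 bp from the start of CG30020 and scored 2.06. Within 200 bp of the limit lay 149 summits inside it and 134 outside.

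H3K4me3 marks the nucleosomes that follow the start of a transcribed gene. In flies it is laid down mainly by the Set1 methyltransferase complex, which is tied to initiating RNA polymerase II. The mark is strongest at broadly used promoters and faint at many genes whose expression is restricted to 1 tissue or stage. H3K9me3, by contrast, marks heterochromatin and is the mark that nuclear Piwi directs to transposons in the ovary.

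OSS is a Drosophila melanogaster line of ovarian somatic sheath cells, which have a piRNA pathway that runs from the flamenco locus through Piwi and lacks the germline amplification cycle. The series asked how the transcription factor Traffic jam (TJ) acts on flamenco and the Piwi pathway. H3K4me3 was mapped in 1 library from cells given siRNA against GFP (siGFP, the control), 1 given siRNA against TJ (siTj) and 2 labelled Plain, a label that names no siRNA. Long RNA, which is total RNA depleted of ribosomal RNA, was sequenced from 3 libraries each of siGFP and siTj cells, and from siPiwi and siCi cells, which were used to estimate the spread in the statistical fit. All groups were the same cell line, and no transgene or mutant allele was named for any of them. No label states that the replicates came from separate cultures, and p-values therefore measure a spread that may be technical. With 1 Cut&Run library per siRNA, differences between H3K4me3 lists have no replicate check and no test.

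The score of a summit is the authors' −log10 of the q-value at that position, and a score of 1.3, a q of 0.05, was about the lowest in each list. It ranks summits within a list and rises with the depth of a library, which is not known here for Cut&Run. The Plain 1 list held 6384 summits, Plain 2 held 5949 and siTj held 3134, and 82.1%, 80.9% and 81.3% of these lay within 1 kb of a start. Median scores at starts were 24.2 in siGFP, 109.9 in Plain 1, 23 in Plain 2 and 5.26 in siTj. The siTj H3K9me3 list was also the shortest of its kind, with 8829 summits against 16939 in siGFP, 16420 in Plain 1 and 11124 in Plain 2. Long RNA libraries held 9075806 to 54359738 unique sense reads in genes. Antisense reads made up 12.4% in siPiwi 2 and 9.27% in siTj 2, against 4.07% to 5.08% in the other 10 libraries. Genes of ovarian somatic cells were expressed, 20 of 22 on the list used here, among them tj, piwi and fs(1)Yb, where expressed means 1 CPM or more in each of the 3 siGFP libraries and CPM are read counts scaled to library size. Of 16 genes on the germline list 10 were also expressed, led by pum, stau and BicD, which are not restricted to the germline. Among the defining germline genes vas read 7.55, 6.67 and 4.43 CPM and bam 2.85, 1.83 and 1.74 CPM, and oskar (osk) read 0, 0.173 and 0 CPM. The part of these transcripts in the results was not tested.

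The summits lay downstream of the starts, and at 2 preferred distances. Measured to the nearest start, the 5086 summits had a median offset of 218.5 bp in the direction of transcription, with quartiles at 139 and 328.8 bp, and 93.5% were downstream. At 1112 isolated starts, those with no other start within 2 kb, the best summit was downstream in 94.3% and the median offset was 253 bp. Few starts sat at that median. The offsets formed a first peak at 140 to 160 bp, with 131 starts in that 20 bp bin, and a second at 300 to 320 bp, with 78, and fell to 17 starts at 220 to 240 bp between them. The range from 0 to 220 bp held 467 isolated starts (42%) and the range from 220 to 420 bp held 426 (38.3%).

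**Figure D1:**
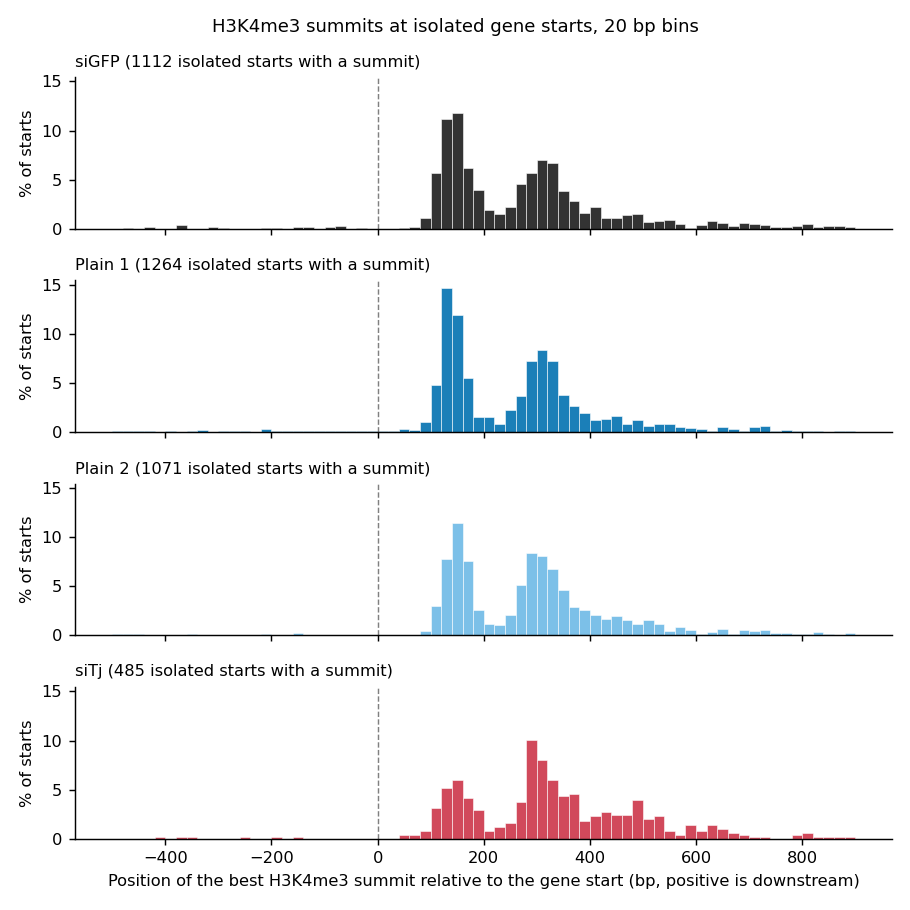
Each panel shows, for 1 Cut&Run library, the share of isolated gene starts (y axis, percent) whose best H3K4me3 summit fell in each 20 bp bin of distance from the start (x axis, bp, positive downstream; the dashed line is the start). In siGFP the bars peak at 140 to 160 bp and at 300 to 320 bp with a dip at 220 to 240 bp, and the same 2 peaks are seen in the other libraries, the first lower than the second in siTj.

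The same 2 distances appeared in every library, in different proportions. The first peak was highest at 120 to 140 bp in Plain 1 and at 140 to 160 bp in Plain 2 and siTj. The second was highest at 300 to 320 bp in Plain 1 and at 280 to 300 bp in Plain 2 and siTj. Over the 463 isolated starts that had a summit in all 4 lists, the best summit lay 0 to 220 bp downstream at 42.3% in siGFP, 39.7% in Plain 1, 32.2% in Plain 2 and 24.6% in siTj. The median offset at these starts was 253, 264, 294 and 305 bp in that order. Plain 2 thus lay between the other control lists and siTj, and a difference between single libraries cannot be told apart from one between treatments.

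Position varied between groups of RNA level, though not in 1 direction. Among isolated expressed starts, the median offset was 256 bp in the lowest of 5 equal groups of siGFP long RNA level (n = 65), 186, 192.5 and 235 bp in the next 3, and 292 bp in the highest (n = 289). The 95% intervals of the medians were taken from ranks over starts of 1 library. From the lowest group to the highest they were 167 to 297, 159 to 266, 168 to 254, 177 to 277 and 267 to 305 bp. That of the highest group overlapped those of the lowest and the fourth. Upstream summits made up 10.8% in the lowest group and 1.38% in the highest.

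When all starts were taken, the best summit within 1 kb was upstream at 33.6% of the 5981. A summit was within 1 kb of 1 start in 2207 cases (43.4%), of 2 starts in 2557 (50.3%) and of 3 or more in 322. A summit 0 to 1 kb downstream of the start was present at 5023 starts. The other 958 had a summit upstream alone, and 775 of these (80.9%) stood head to head with another start within 1 kb. Summits on either side and downstream summits are therefore counted separately where neighbours matter.

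Of the 8 highest scores, 5 belonged to genes for translation, namely EF2 and 4 ribosomal protein genes. EF2, translation elongation factor 2 (chromosome 2L, 21677913 to 21682116, minus strand), scored 221.0 at 319 bp downstream, and its long RNA read 6162, 5490 and 4073 CPM in the 3 siGFP libraries. RpL27A scored 208.0 at 175 bp, RpL26 203.0 at 430 bp, RpL21 188.5 at 492 bp and RpLP2 175.5 at 389 bp, all ribosomal protein genes at a mean of 934.2 CPM or more. These 5 scored 539.3 to 747.6 in Plain 1, 115.5 to 213.3 in Plain 2 and 14 to 22.7 in siTj. Swip-1, an actin-binding EF-hand protein gene, scored 191.5 at 482 bp and read 3672, 1875 and 845.3 CPM. CG9987 scored 180.0 at 290 bp with a mean of 398.9 ± 48.4 CPM (SD, n = 3). Eaf, a partner of the elongation factor ELL, scored 175.9 at 162 bp at a far lower level of 72.8, 98.1 and 55.3 CPM, so a high score was also found at a gene of moderate level. Swip-1, RpLP2 and Eaf had a TJ peak at their starts.

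Genes with more RNA more often had a summit, and the summit scored higher. Expressed genes numbered 7786, and 5302 of them (68.1%) had a siGFP summit within 1 kb. Level was given as CPM per kb of gene, introns included. In the lowest group of level, below 3.15 CPM per kb, 21.1% of 1558 genes had a summit, and the shares in the following groups were 59.9%, 80.2%, 88.4% and 91.1%. These groups also differ in length, with a median of 8854 bp in the lowest and 2161 bp in the highest. By CPM without division by length the shares were 36.8%, 67.4%, 75.1%, 79.8% and 81.3%. The median score where there was a summit was 19.1, 24, 28.3, 33.8 and 46.1 from the lowest group to the highest. The scores overlapped widely between groups, with quartiles of 8.52 and 35.5 in the lowest and 26.8 and 70 in the highest.

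**Figure D2:**
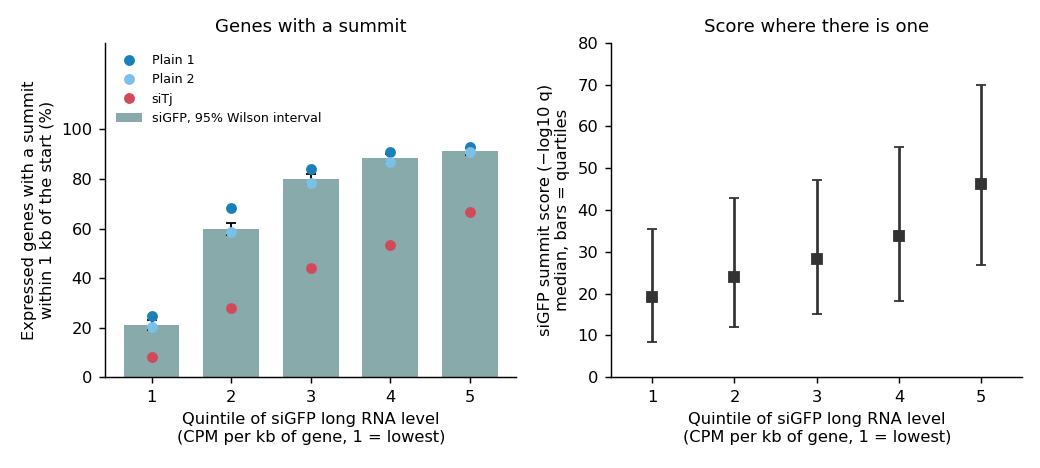
Left, the share of expressed genes with a summit within 1 kb of the start (percent) in each quintile of siGFP long RNA level, as bars with 95% Wilson intervals for siGFP and as points for the other lists. Right, the siGFP score (−log10 q) of those summits, as median and quartiles; the share rises from 21.1% to 91.1% and the median score from 19.1 to 46.1.

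Across genes the relation between score and level was weak. Spearman's rho was 0.31 over the 5302 expressed genes with a summit, 0.35 over the 1055 at isolated starts and 0.38 when summits downstream of the start alone were used. It was 0.22 for CPM without division by gene length and 0.26 for exonic reads per kb. The Plain 1 and Plain 2 scores gave 0.32 and 0.3 against the same siGFP levels, and the siTj score gave 0.14 over 3119 genes. Genes are not independent replicates, neighbouring starts share summits, and all genes share 1 Cut&Run library, so these values describe these libraries.

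Gene length separated marked from unmarked expressed genes at every level. The shortest quintile of expressed genes, 299 to 1508 bp, had a summit in 81.5%, and the longest, from 9337 bp up, in 39.2%. At the lowest quintile of CPM, a summit downstream of the start was found at 47.9% of the shortest genes and at 0.712% of the longest. At the highest quintile of CPM it was found at 94.2% of 120 shortest genes and at 57.2% of 537 longest. The fall in this share from the shortest to the longest genes was seen in each quintile of CPM, from 76.1% to 8.74% in the second, from 81.3% to 20.4% in the third and from 87% to 37.3% in the fourth. The tables give 1 start per gene, so summits at other promoters of long genes are not at a start by this rule. Of the 947 longest genes with no summit at the start, 154 (16.3%) had one inside the gene, against 2 of 288 (0.694%) of the shortest.

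**Figure D3:**
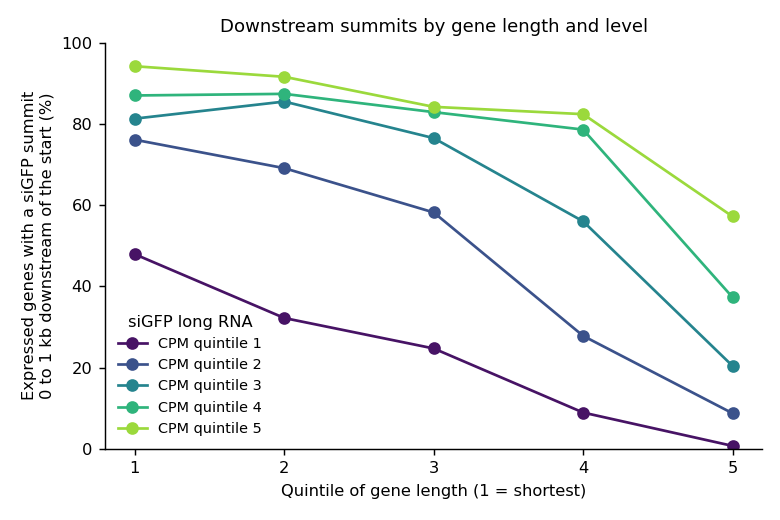
Share of expressed genes with a siGFP summit 0 to 1 kb downstream of the start (y axis, percent) by quintile of gene length (x axis, 1 is shortest), with 1 line per quintile of siGFP long RNA in CPM. Every line ends lower at the longest genes than it begins, from 47.9% to 0.712% in the lowest quintile of CPM and from 94.2% to 57.2% in the highest.

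Close neighbours had summits more often. Of 3656 expressed starts that stood head to head with another start within 1 kb, 3279 (89.7%) had a summit, with a median score of 37.6. Of the other 4130 expressed starts, 2023 (49%) had one, with a median score of 23.9. A start that stands head to head can be given its neighbour's summit by this count. With downstream summits alone the shares were 75.5% and 46.2%, and the median scores 28.9 and 23.1. On the fourth chromosome, a short and largely heterochromatic chromosome, 39 of 50 expressed genes (78%) had a summit, and the shares on 2L, 2R, 3L, 3R and X were 67.8%, 67.6%, 68.6%, 69.1% and 66.8%. Among expressed genes, an H3K9me3 summit of the siGFP list lay within 1 kb at 1.72% of starts with an H3K4me3 summit and at 8.17% of those without.

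Genes expressed without a summit numbered 2484 of 7786 (31.9%, Wilson 95% interval 30.9 to 32.9). Their median level was 18.4 CPM against 59.9 CPM for expressed genes with a summit, and their median length 5598 against 2569 bp. Plain 1, the list with the highest scores, had a summit at 441 of these starts, with a median score of 13.5, Plain 2 at 150 and siTj at 39. No summit in any of the 4 lists was found at 1986 expressed starts (25.5%), and for 1625 genes there was also none inside the gene in the siGFP or Plain lists. Counting a summit 0 to 1 kb downstream as the gene's own, 3114 expressed genes (40%) had none in siGFP.

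The most highly expressed of the unmarked genes, among those at least 1 kb long with the same bounds in all tables, were of 2 kinds. At Act5C, a cytoplasmic actin gene (X, 5900861 to 5905399), and Hsc70-3, the chaperone BiP of the endoplasmic reticulum, the mark was present just past the limit. Act5C read 3295, 4123 and 4017 CPM, and its nearest siGFP summit lay 1402 bp downstream with a score of 48.7, while Plain 1 had one of 154.4 at 609 bp. Hsc70-3 read 1737, 1425 and 945.6 CPM, with a siGFP summit of 25.2 at 1309 bp and Plain 1 and Plain 2 summits of 80.7 and 13.9 at 896 and 897 bp. These 2 genes have no summit by the distance rule and do have one further into the gene.

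The other kind had no siGFP summit near. LanA, a laminin chain of the basement membrane, read 5124, 3181 and 1644 CPM, its nearest siGFP summit lay 24380 bp away, and Plain 1 had a summit of 14.2 at 209 bp. LanB1, another laminin chain, read 2683, 2200 and 1300 CPM, with none nearer than 10921 bp in siGFP and a Plain 1 summit of 5.2 at 399 bp. Gp150, a transmembrane glycoprotein gene, read 2038, 1639 and 1007 CPM and had no summit within 1 kb in any list. CG10623 read 781.4, 235.7 and 226.1 CPM, had a TJ peak at its start, and had a single summit near, of 3.18 at 435 bp in Plain 2.

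Genes with little RNA rarely had a summit that was not next to another gene's start. Of the 7350 genes under 1 CPM in each siGFP library, 524 (7.13%) had a summit within 1 kb, and 345 of these 524 had the start of an expressed gene within 1 kb. Of the 4974 low genes with no other start within 1 kb, 95 (1.91%) had a summit. A downstream summit was found at 259 low genes, 65 of them with no other start within 1 kb, and the median score of these 65 was 5.8. Among summits whose nearest start was that of a low gene, the 4 highest scores were 129.3 at CR43603, 115.6 at CR45969, 108.1 at CR44985 and 94 at CG44296, and each summit lay upstream of that gene. The summit near CR43603 was 341 bp downstream of CG10576, which read a mean of 470.5 CPM, and the one near CR44985 was 311 bp downstream of Ncoa6, which read 584.8 CPM. The summit near CR45463, scoring 71.2, was 171 bp downstream of Daxx, at 238.7 CPM. CG44296 was different, since no other start lay within 1 kb of it, and its summit, 561 bp upstream, scored 320.9 in Plain 1, 78.4 in Plain 2 and 13.3 in siTj. RpL14, a ribosomal protein gene that every cell uses, was listed at 0 reads in every siGFP and siTj library, and its start had a summit of 90.9 at 375 bp, with 422.7 in Plain 1, 67.9 in Plain 2 and 13.3 in siTj. Nelf-E, the other start within 1 kb of RpL14, read a mean of 0.0791 CPM, and the reason for these values is not known. In all, 147 of the 5981 starts with a summit had no unique sense read in any siGFP library. Since unique reads alone were counted, genes of many near-identical copies can have none, and their part in the 147 was not tested.

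The lists of genes described next were chosen with earlier results of these data known. Among housekeeping groups nearly every expressed gene had a summit. Of 86 expressed genes for cytoplasmic ribosomal proteins and their close paralogs, 84 had one within 1 kb and 81 had one downstream, against 68.1% and 60% of all expressed genes, and the median score over the 86 list members with a summit, 2 of them low genes, was 78.8 against 31 over all starts. The expressed exceptions were RpL39, at 16.6, 27.3 and 74.3 CPM, and RpS5b, a paralog best known from the germline, at 20.8, 50.5 and 72.1 CPM. All 12 genes of general transcription at promoters had a summit, 11 of them downstream, from Trl, the GAGA factor, at 8.13 to Z4 at 91.6. Cdk9, the kinase of P-TEFb, scored 88.9 and Tbp, the TATA-binding protein, 31.5.

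All 12 genes listed for H3K4 methylation had a summit, 11 of them downstream. Of the 3 H3K4 methyltransferases, trr (Trithorax-related) scored 77.1 at 297 bp, Set1 39.3 at 405 bp and trx (Trithorax) 12.6 at 154 bp. lid, which encodes the demethylase that removes the mark, scored 162.6 at 335 bp, the highest on this list, and read 1583, 1113 and 364.4 CPM. Hcf, a subunit shared by several chromatin complexes, had the lowest score, 5.23 at 804 bp.

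Genes that make ovarian somatic cells distinct were marked in part. Of 20 expressed genes on the follicle and ovarian somatic list, 9 (45%) had a summit within 1 kb and 7 (35%) had one downstream, beside 68.1% and 60% of all expressed genes. tj itself scored 150.8 at 467 bp, and its score of 793.6 was the highest at a start in Plain 1. Wnt4, which encodes a secreted signal, scored 12 although it read 1553, 1878 and 698.3 CPM, and ptc, the Hedgehog receptor, scored 19.2 at 818 bp. br, an ecdysone-response factor at 904.2, 533.8 and 418.8 CPM, and the receptor gene N (Notch) at 780.7, 899.0 and 451.7 CPM had no siGFP summit and scored 6.78 and 5.24 in Plain 1. eya, ct, cas and Fas3 were also expressed with none in siGFP.

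Of 14 expressed genes of somatic piRNA biogenesis, 10 (71.4%) had a summit within 1 kb and 7 (50%) had one downstream, near the shares of all expressed genes. Several of these summits lay on the side of a neighbour. The summit of 101.9 near zuc, the nuclease that sets piRNA ends, lay 206 bp upstream of its start, that of 58.6 near fs(1)Yb, which gathers piRNA precursors at Yb bodies, lay 293 bp upstream and was 152 bp downstream of CG2701, and that of 35.5 near vret lay 199 bp upstream. armi, the helicase of the same bodies, had 30.6 at 886 bp upstream, which was 172 bp downstream of eIF5B, and its own summit at 251 bp downstream scored 9.72. Read this way, armi had a low score for a gene at 1489, 1201 and 2902 CPM. SoYb at 95.7, 101.6 and 96.5 CPM and BoYb at 30.4, 38.1 and 48.4 CPM had no summit in any list.

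Of 12 expressed genes of nuclear silencing, 10 (83.3%) had a summit and 9 (75%) had one downstream. Su(var)2-10, a SUMO ligase, scored 79.8 at 285 bp, and Hdac1 51.4 at 316 bp. piwi scored 9.72 at 168 bp while it read 720.7, 661.1 and 902.0 CPM, with 65.4 at 110 bp in Plain 1 and none downstream in Plain 2. nxf2, the export factor relative of the Panx complex, had 10 at 449 bp and a stronger summit of 45.4 upstream, and egg, the H3K9 methyltransferase, had 25.9 at 288 bp. mael and wde were expressed, at 152.7, 121.3 and 151.0 CPM and at 83.4, 123.1 and 55.7 CPM, and had no summit within 1 kb in any list. At flam (X, 21631891 to 21790731), the source of somatic piRNAs, the siGFP list had no summit within 1 kb of the start, and Plain 1 had one of 8.18 at 524 bp. flam read 694.3, 464.0 and 1186 CPM of unique reads.

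Heat shock genes largely had no siGFP summit at their starts. Of 11 expressed, 3 had one, DnaJ-1 at 44.2, Hsp83 at 39.2 and Hsc70-4 at 36.8. That of Hsp83 lay 809 bp upstream, and its summit downstream, at 946 bp, scored 15.7. Plain 1 also had summits within 1 kb of Hsc70-3, Hsp68 and stv, of 80.7, 6.63 and 6.18. The small heat shock genes Hsp22, Hsp23, Hsp26 and Hsp27, at 8.66 to 88.6 CPM per library, had none in any list. Hsp70 copies share sequence and were not on the list. Of germline genes, 4 of 10 expressed had a summit, 3 of them downstream, and of genes for germline piRNA factors 4 of 8 had one, with krimp the highest of the downstream summits at 41. nos and exu were low, at up to 0.207 and 0.83 CPM, and their summits of 32.8 and 18.3 lay 558 and 417 bp upstream. None of the expressed genes listed for eggshell and yolk (3), muscle (6), hemocyte and fat body (4) or neuron (4) had a summit.

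**Figure D4:**
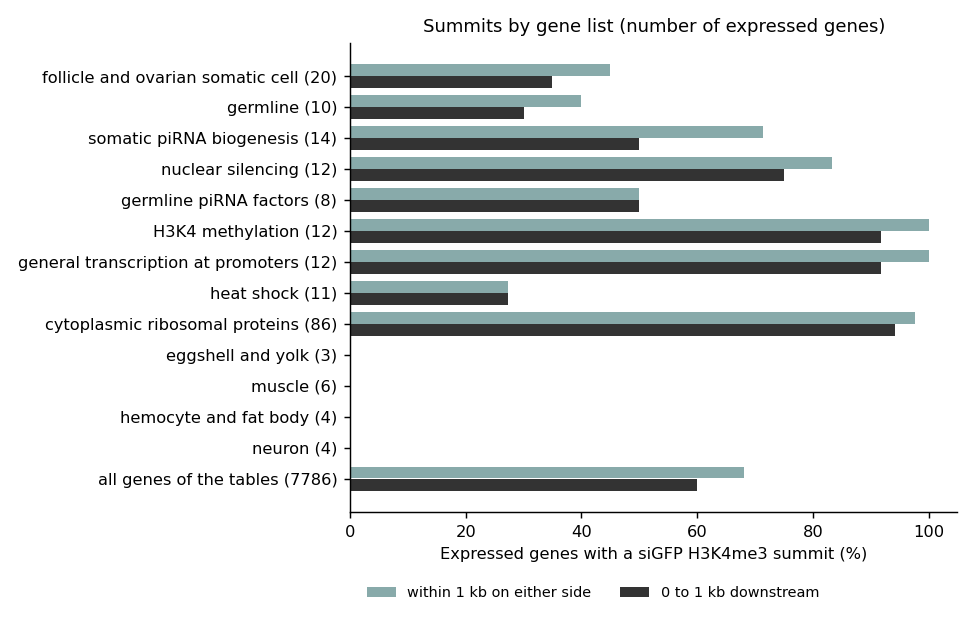
Share of the expressed genes of each list (x axis, percent; number of expressed genes in brackets) with a siGFP H3K4me3 summit within 1 kb on either side of the start (grey) and 0 to 1 kb downstream (black). The H3K4 methylation, general transcription and ribosomal lists stand at 91.7% or more by either count, the follicle list at 45% and 35%, and all genes at 68.1% and 60%.

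Plain libraries recovered most control summits. A Plain 1 summit lay within 500 bp of 4566 of the 5086 (89.8%) and a Plain 2 summit of 4503 (88.5%). The median distance to it was 21 and 32 bp, and scores of matched summits had a Spearman's rho of 0.896 with Plain 1 and 0.875 with Plain 2. Recovery rose with the siGFP score, from 75.2% to 95.4% between the lowest and the highest quintile in Plain 1 and from 60.7% to 98% in Plain 2. In siGFP alone were 214 summits (4.21%), with a median score of 3.94.

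The siTj library recovered 2322 of the 5086 (45.7%, Wilson 95% interval 44.3 to 47), and the share depended on score. It was 7.45% in the lowest quintile of siGFP score, up to 8.4, then 20%, 40.4% and 70%, and 90.7% in the highest, from 51.5 up. Matched summits were 71 bp apart in the median, their scores had a rho of 0.525, and the siTj score was a median of 0.129 times the siGFP score. With each list held to its 3134 highest scores, recovery was 88.7% in Plain 1, 87.6% in Plain 2 and 67.7% in siTj, and it reached 92.6% in the highest quintile in siTj. All 4 lists shared 2133 of the 5086, with a median siGFP score of 45.2, and 2117 were in both Plain lists and not in siTj, with a median of 16.3. The shorter siTj list for H3K9me3 goes in the same direction, and the part of depth or signal quality in the siTj recovery was not tested. Summits away from starts were recovered less often, at 50.8% in Plain 1, 48.2% in Plain 2 and 31% in siTj, and their median siGFP score was 4.47. At a like score this order did not hold in siTj. In the lower 4 quintiles of score it recovered 21.2%, 48.1%, 47.1% and 83.7% of summits away from starts, against 7.45%, 20%, 40.4% and 70% at starts, and in the highest 83.9% against 90.7%. The Wilson intervals did not overlap in the lowest 2 quintiles.

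**Figure D5:**
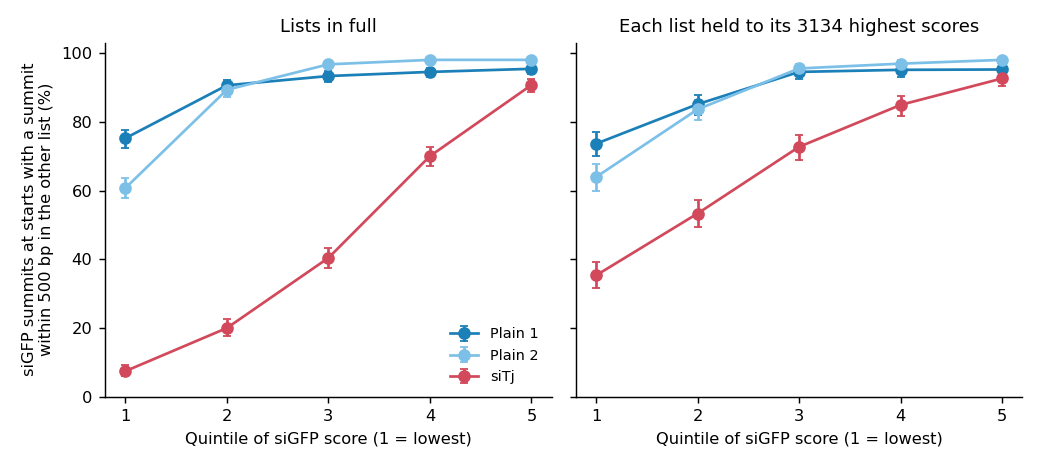
Share of siGFP summits at starts with a summit of another list within 500 bp (y axis, percent, 95% Wilson intervals) by quintile of siGFP score (x axis), with lists in full (left) and held to equal number (right). In the lists in full siTj rises from 7.45% to 90.7%, while Plain 1 and Plain 2 start at 75.2% and 60.7% and end above 95%.

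At a given score, the Wilson intervals of recovery in siTj with and without a TJ peak overlapped in every quintile. Such overlap does not show that recovery was alike. TJ peaks are 1987 regions of 500 bp from one list of chromatin immunoprecipitation, and 743 had their centre within 1 kb of a start. In the highest quintile of siGFP score, siTj recovered 91.3% of 149 summits at starts with a TJ peak and 90.7% of 867 without. In the lowest quintile it recovered 4.63% of 108 and 7.79% of 912, with Wilson intervals of 1.99 to 10.4 and 6.22 to 9.71. In the quintiles between, from lower to higher score, it recovered 17.1%, 46.7% and 69.4% with a TJ peak. Without one it recovered 20.4%, 39.4% and 70.1%.

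Strong summits missing from siTj were few. Of 1016 summits in the highest quintile, 94 had no siTj summit within 500 bp, and 33 of these 94 had one within 1 kb of the same start. In 9 of the 33 it lay downstream of that start, and in 24 upstream alone, 23 of which were 0 to 1 kb downstream of another start. At tj the siGFP summit was at 467 bp and the Plain 1 and Plain 2 summits at 713 and 604 bp. The siTj list had one at 991 bp with a score of 27.7, high for that list, and one of 2.05 at 170 bp upstream. At Cka, a scaffold gene of the STRIPAK complex, the siGFP summit of 127.2 at 322 bp had a siTj counterpart of 6.31 at 941 bp. Arp3, of the actin-nucleating Arp2/3 complex, had 108.4 at 136 bp downstream in siGFP and 14.7 at 476 bp upstream in siTj, which was 199 bp downstream of msk. The nearest siTj summits of CG3815 and the septin gene Sep2, 8.97 and 2.65, were likewise 402 bp downstream of CG15891 and 335 bp downstream of Srp72, and none of these 3 genes had a siTj summit on its own side. mip120, a subunit of the Myb-MuvB complex, scored 111.8 in siGFP, 275.9 in Plain 1 and 81.4 in Plain 2, and its nearest siTj summit lay 1412 bp downstream. Of these 6 genes tj alone was called in long RNA, in the paired fit.

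TJ depletion was visible in its own RNA. tj read 2031, 1105 and 1212 CPM in siGFP and 569.5, 217.9 and 593.6 CPM in siTj, with no overlap. The log2 fold change was −1.66 ± 0.61 (SE) without pairing (edgeR adjusted p = 0.533) and −1.72 ± 0.32 with the replicate number as a block, the paired fit (adjusted p = 0.0198). DESeq2, without pairing, gave −1.66 and did not call tj either (adjusted p = 0.103). Without siTj 1 the paired edgeR adjusted p was 0.083, and it was 0.0471 or less without any other single library. In bulk RNA, fewer cells that express a gene and less RNA per cell cannot be told apart.

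Genes with a control summit were seldom called changed in RNA after siTj. Without pairing, edgeR called 5 of 10724 genes (0.0466%), all lower, and none of the 5582 with a siGFP summit, of which 198 passed 0.05 before adjustment. Of 5451 genes with a summit, DESeq2 called 15 higher and 25 lower, where over all genes it called 2.32%, 1.24% higher and 1.08% lower. With pairing, 377 genes were called (3.52%), of which 221 were higher (2.06%) and 156 lower (1.45%). With siPiwi 2 and siTj 2 left out the paired fit called 7.47% of all genes, 3.1% higher and 4.37% lower, and of genes with a summit 1.46% higher and 2.31% lower. Of genes with a siGFP summit the paired fit with all libraries called 53 higher (0.949%) and 54 lower (0.967%), and of the 5142 without one 168 higher (3.27%) and 102 lower (1.98%). Before adjustment, 1001 of the 5582 and 1135 of the 5142 passed 0.05 in that fit, so a gene not called was not shown to be unchanged.

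Pooled over scores, these shares were close for genes whose summit was and was not recovered in siTj. Of 2980 genes with a recovered summit, 28 were higher (0.94%) and 28 lower (0.94%) in the paired fit, and of 2602 with a summit not recovered 25 were higher (0.961%) and 26 lower (0.999%). Recovery rose with score, and in the lowest quintile of score 4 of 30 genes with a recovered summit were called higher, against 6 of 621 with one not recovered. Over all scores, the median paired log2 fold change was −0.15 for genes with a recovered summit and −0.18 for those with one not recovered. It was 0.018 over all genes tested and 0.51 over genes with no summit. With siPiwi 2 and siTj 2 left out, the median over genes with no summit was 0.032. The filter on low counts was run again for that fit, which held 4428 such genes against 5142. The parts of the libraries and of the filter in this change were not tested.

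The lower share of calls at marked genes was seen in every quintile of CPM. A summit downstream of the start was found at 4798 of the genes tested (44.7%), at 34 of the 221 called higher (15.4%) and at 45 of the 156 called lower (28.8%). In the highest quintile of CPM, the paired fit called 39 of 1182 genes with a downstream summit (3.3%) and 45 of 375 without (12%). In the middle quintile it called 15 of 1051 (1.43%) and 65 of 506 (12.8%), and in the quintile above the lowest 2 of 880 (0.227%) and 65 of 677 (9.6%). Gene length also differed between these classes, and its part in the shares was not tested.

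The largest falls among genes with a summit were at weak summits or next to a neighbour. CG7194 read 470.5, 560.6 and 1857 CPM in siGFP and 39.1, 135.3 and 105.8 CPM in siTj, a paired log2 fold change of −3.11 ± 0.44 (adjusted p = 0.00937, 0.23 without pairing). Its own summit downstream scored 2.68, and that of 17 at 222 bp upstream was 124 bp downstream of Sbp2. Saf6, a TAF6-like subunit of the SAGA complex, read 132.3, 113.7 and 249.1 CPM in siGFP and 22.5, 19.9 and 29.8 CPM in siTj, a log2 fold change of −2.71 ± 0.32 (paired edgeR adjusted p = 0.00499, 0.0909 without pairing). It had a TJ peak at its start and a siGFP summit of 6.24. CG4570 fell by 2.7 on the log2 scale (paired edgeR adjusted p = 0.0111, 0.218 without pairing) and its summit scored 4.56. None of these 3 had a siTj summit within 1 kb. Plain 1 had a summit of 43.8 at 290 bp downstream at Saf6 and of 59.4 at 285 bp downstream at CG4570. At CG7194 it had none downstream and one of 147.1 at 183 bp upstream, on the side of Sbp2. The siGFP scores of these 3 fall in the lowest 2 quintiles, where siTj recovered 7.45% and 20% of all summits at starts. armi read 278.4, 207.3 and 450.4 CPM in siTj, a log2 fold change of −2.55 ± 0.31 (paired edgeR adjusted p = 0.00499, 0.267 without pairing), and the siTj list kept a summit of 4.15 near eIF5B and none at armi.

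Among pathway genes named for comparison, chosen with their values known, piwi read 120.1, 169.6 and 312.9 CPM in siTj, below every siGFP library, with a paired log2 fold change of −2 ± 0.38 (edgeR adjusted p = 0.0216, 0.299 without pairing). The paired value was 0.0678 without siGFP 1 and 0.083 without siTj 1. Its siGFP summit of 9.72 had no counterpart within 1 kb in siTj, and siTj recovered 20% of all summits at starts in that quintile of score. Plain 2 also had no summit downstream of piwi, and its nearest, of 13.7, lay 506 bp upstream. nxf2 fell by 1.69 and fs(1)Yb by 1.7 on the log2 scale in the paired fit (edgeR adjusted p = 0.00499 and 0.0222, 0.212 and 0.349 without pairing). For fs(1)Yb the paired value was 0.0678, 0.0636 and 0.0567 without siGFP 1, siTj 1 and siTj 3. The summits of 7.27 and 4.19 that siTj held near nxf2 and fs(1)Yb were on the side of the neighbouring gene. mael and dec-1, an eggshell gene, had no H3K4me3 summit within 1 kb in any list, and they were among the 5 genes called lower without pairing, each at an edgeR adjusted p of 0.0431. dec-1 read 623.3, 696.1 and 482.3 CPM in siGFP and 44.4, 105.5 and 125.5 CPM in siTj.

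The largest rises among genes with a summit had it upstream. CG9689 (X, 9881953 to 9883670) read 2.23, 15.4 and 6.54 CPM in siGFP and 71.9, 268.6 and 68.3 CPM in siTj, a log2 fold change of 4.17 ± 0.49 (paired edgeR adjusted p = 0.00499, 0.343 without pairing). Its siGFP summit, 691 bp upstream with no other start within 1 kb, scored 20.5. Plain 2 had one of 8.43 and siTj one of 35.7, both 693 bp upstream. The score of 35.7 was the highest siTj score at any start. The nearest Plain 1 summit, of 84.9, lay 1010 bp upstream, past the 1 kb limit. The siTj summit was 2 bp from the siGFP summit, and an H3K9me3 summit of 5.11 lay within 1 kb of the same start in siGFP. bmm, which encodes a triglyceride lipase, had a log2 fold change of 3 ± 0.67 (paired edgeR adjusted p = 0.0356, 0.328 without pairing). Its paired call was lost in 5 of the 6 fits that left out 1 siGFP or siTj library, all but that without siGFP 3, with adjusted p up to 0.137. The summit of 77.9 near it was 183 bp downstream of Tdrd3. CG9801, with a log2 fold change of 3.27 ± 0.5 (paired edgeR adjusted p = 0.00954, 0.23 without pairing, 0.0551 paired without siGFP 1), had a summit of 16.3 that was 338 bp downstream of CG8223. CG1572, from 0.371, 1.4 and 1.66 CPM to 7.93, 22.1 and 30 CPM (paired edgeR adjusted p = 0.0153, 0.258 without pairing, 0.0756 and 0.0816 paired without siGFP 1 and siTj 3), had a summit of 3.14 at 898 bp upstream in siGFP and 4.62 in siTj and none in the Plain lists.

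A score above that of siGFP was rare in siTj. It was found at 37 of the 2322 matched summits (1.59%), at 12 of them with the siTj summit within 100 bp. This group was chosen after its values were seen. Of the 33 nearest genes tested, the paired fit called 4 higher, beside 2.06% of all genes, and the 4 were CG9689, CG1572, CG12655 and Tollo. CG12655 read 165.2, 140.9 and 349.8 CPM in siGFP and 571.7, 452.1 and 841.2 CPM in siTj, and its summit at 625 bp scored 2.02 in siGFP and 6.25 in siTj. Tollo, a Toll-family receptor gene, read 66.1, 72.2 and 54.6 CPM in siGFP and 176.4, 122.8 and 89.5 CPM in siTj, and its summit scored 1.8 and 5.26. Without pairing edgeR called none of these 4. DESeq2, also without pairing, called CG1572 (adjusted p = 0.00179). It did not call CG12655 or Tollo (adjusted p = 0.0855 and 0.0979) and gave no adjusted p for CG9689. The paired edgeR call of Tollo (adjusted p = 0.0357) was lost without any 1 of the 6 siGFP and siTj libraries, and that of CG12655 (adjusted p = 0.0116) without siGFP 1, siGFP 2 or siTj 1, with adjusted p of 0.0744 to 0.319 and up to 0.112.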

How the data were processed

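Per the submitters' processing notes, the tools were FastQC, Bowtie2, MACS2 and DESeq2, whose roles and versions are not stated. The deposited Cut&Run lists give 1 position per summit and the authors' score, a −log10 q-value, per the file headers. Long RNA tables held the authors' whole-number counts of unique sense reads per gene. TJ peaks were deposited as positions of other kind, 500 bp wide and with no value. Positions match Release 6, as judged from 12346 genes found by symbol in the reference table, 89.3% with the same bounds. Bounds differed between libraries for 756 genes. Starts are the outer bounds of genes. Columns of samples outside the series numbered 0.

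Matching by position and the fit were tested on simulated data. Shares carry Wilson intervals, which cover counting error only. Quintiles are 5 groups of equal size by rank. Counts from 12 OSS libraries were tested with edgeR 4.0.16 in R 4.3.3 (quasi-likelihood, TMM, filterByExpr, Benjamini-Hochberg, threshold 0.05), without a term for the replicate number. Deviations from group means correlated in 18 of 18 same-number pairs (r from 0.248 to 0.9), so the numbers, which come from the labels, were taken to pair the samples, and the fit with that block is printed beside the first. DESeq2 1.42.0 was an alternative. CPM are counts scaled to TMM library sizes.

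Summits, gene lists and tests were chosen with earlier results of these data known. Genes were named by rule: the 8 highest scores, the 6 highest levels without a summit, the 6 highest scores under 1 CPM, the 6 highest scores missing from siTj, the 4 largest called falls and rises, and examples from lists. Others are said to be chosen later. No sequences are shown, since none were used here.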

Additional observations from a re-analysis of the deposited data

How the results depend on the processing

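The share of summits at starts was 38.8% within 250 bp, 72% within 500 bp, 87.6% within 2000 bp, 79.2% for genes of alike bounds and 95.4% for scores above the median. The median offset of the best summit over all starts, 148 bp, was 144 bp within 250 bp, 164 bp within 500 bp and 142 bp within 2000 bp. It was 144 bp for scores above the median and 253 bp at isolated starts. With all summits within 1 kb of a start counted, not the best alone, it was 141 bp. The median of 218.5 bp given above is another measure, from each summit to its nearest start alone. The Spearman correlation of score and level was 0.23 in scores above the median, 0.22 without length, 0.35 at isolated starts, 0.26 for exonic reads and 0.38 for downstream summits. Expressed genes without a summit made up 67.2% within 250 bp, 38.5% within 500 bp, 27.8% within 2000 bp, 51.7% for scores above the median, 25.4% at 5 CPM, 22.7% at 10 CPM, 40% for downstream summits, 25.5% for any list, and 32.1% to 33.7% with 1 siGFP library left out. Recovery within 100, 200 and 1000 bp was 69%, 82.7% and 96.8% in Plain 1, 61.4%, 80.7% and 94.4% in Plain 2, and 24.8%, 37.4% and 54.3% in siTj. For scores above the median it was 94.5%, 97.7% and 67.8%, and with lists of equal number 88.7%, 87.6% and 67.7%. The cause of these differences was not tested beyond the change of rule itself.

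The replicate block, with numbers that pair the samples, raised the calls in siTj from 5 to 377. DESeq2 called 209, the fit without a filter on low counts 9, and the fit of siTj and siGFP alone 1. With 1 library left out, calls ran from 0 to 2 without the block. With it they were 38, 161 and 250 without siGFP 1, 2 and 3, and 69, 358 and 100 without siTj 1, 2 and 3. With siPiwi 2 and siTj 2 left out, chosen after seeing the data, they were 22 and 744. Downstream summits, exonic reads and any list were also chosen after seeing the data. The 8 genes named for the largest falls and rises kept their direction in these fits, though DESeq2 gave no adjusted p for CG9689. With the block and 1 library left out, the call was lost in 5 of 6 fits for bmm, 2 for CG1572 and 1 for CG9801, and in none for the other 5. Depth of the Cut&Run libraries is unknown, and whether weak summits missing from siTj were absent or below detection cannot be told apart.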
